A study of Drosophila melanogaster with 4 samples.

Results

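The JAK/STAT pathway genes of Drosophila melanogaster were followed as 10 genes fixed by name: the ligands upd1 (also called os), upd2 and upd3, the receptor dome, the kinase hop, the transcription factor Stat92E, the inhibitors Socs36E, et and Ptp61F, and chinmo. Each was found through the FlyBase transcript numbers that the count files carry. 8 of the 10 had at least 1 entry, with 30 entries between them, out of 14061 named genes and 30950 entries in all. No entry could be matched by transcript to upd2 or et, which were not analysed here.

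In this pathway a secreted Unpaired ligand binds the receptor Domeless, the Janus kinase Hopscotch bound to the receptor becomes active, and the phosphorylated transcription factor Stat92E enters the nucleus and switches on target genes. Socs36E is both a target of the pathway and its feedback inhibitor, and Ptp61F is a tyrosine phosphatase that acts against Hop and Stat92E. Chinmo is a zinc finger protein of the BTB family that acts downstream of the pathway in the testis and the eye. In the wing disc, the larval tissue that forms the wing and part of the thorax, the pathway is known for its role in growth and in the formation of the hinge.

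RNA came from the wing discs of female larvae at the third instar, 1 disc from each larva, and each of the 4 libraries was made from 300 discs pooled from 6 batches of 50. The assays, labelled FH-cortoCD and RpL12-Myc, each carried a transgene under UAS sites together with the scalloped driver sd::Gal4, which turns on UAS transgenes in the wing disc through the yeast factor Gal4. FH-cortoCD codes for the chromodomain of the chromatin protein Corto, tagged with Flag and HA. RpL12-Myc codes for Ribosomal Protein L12 tagged with Myc. The library of sd::Gal4/+ discs, with the driver alone, was the control, and w1118, the line into which the other lines had been crossed, was a reference with neither driver nor transgene. The comparison of each assay with sd::Gal4/+ asked which transcripts changed when the chromodomain or RPL12 was over-expressed. There was 1 library per genotype and so no replicate check, and every test below compares libraries and not genotypes.

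The summed reads of both ends of the pairs came to between 26833482 in the w1118 library and 44736060 in the library labelled RpL12-Myc. For the assay libraries, title and genotype field in the public record contradict each other, each genotype field naming the transgene in the title of the other. Groups follow the titles here, and FH-cortoCD and RpL12-Myc below mean the libraries so titled, whatever transgene they carried. The authors used the libraries as titled, since their gene lists give Jon65Aiii 585 reads for FH-cortoCD and alphaTry 398 reads for RpL12-Myc, as under these titles. RpL12 itself had 29086 reads under the title FH-cortoCD and 24106 under the title RpL12-Myc, against 17429 for sd::Gal4/+ and 9993 for w1118. After scaling it was higher under the title of the other transgene, by a log2 fold change of 0.33 (from 0.29 to 0.36) between the assays, so no direction between the assays can be assigned to a transgene. These RpL12 values are those of the most abundant of 5 entries. The authors' list for FH-cortoCD holds other RpL12 entries, with larger unscaled folds against sd::Gal4/+. corto had 6164 reads under the title FH-cortoCD, 7836 under the other title, 7766 in the control with the driver and 5424 in w1118. Its log2 fold change between FH-cortoCD and RpL12-Myc was -0.29 (from -0.36 to -0.22). All 11 wing disc markers were read in every library, with a summed level between 1616 and 2242 counts per 1e6 reads (CPM). In each assay 7 of them lay below sd::Gal4/+ and 4 above it. Their log2 fold changes ran from -1.36 to 0.55 in FH-cortoCD and from -1.70 to 0.51 in RpL12-Myc. 1 of them, hth, was called lower in both assays, where 1.29% and 1.66% of all genes were. The fat body markers summed to 53.3 CPM in w1118 and to between 584 and 1307 in the other libraries, and the midgut markers to 15.6 and 103 in the assays and at most 0.143 in the controls. The neuron markers summed to 28.1 and 26.2 CPM in the assays and to 54.8 and 53.9 in the controls. Nearly all of this was elav, with 1927 reads in sd::Gal4/+ beside 18 for Syt1 and 2 for nSyb. elav was called lower in RpL12-Myc, where 1.66% of all genes were. nSyb, with at most 7 reads in any library, was above sd::Gal4/+ in both assays. In bulk tissue, fewer cells that express a gene and less RNA per cell cannot be told apart.

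The transcript level of the 8 genes spanned from below 1 RPKM for upd3 to above 47 RPKM for Stat92E, Ptp61F and dome. RPKM are reads per kilobase of an entry and per 1e6 reads of the library, scaled by TMM. Among all named genes of a library, Stat92E, Ptp61F and dome lay between the 90.1 and 94.1 percentiles and hop and Socs36E between 75.6 and 80.4. upd1 and chinmo lay near the middle, between 47.7 and 53.2, and upd3 between 35.5 and 40.6. A gene was represented by its most abundant entry, an entry being either a whole transcript or the exons shared by one set of transcripts. Intervals of levels are exact Poisson intervals at 95% on read pairs and cover counting error only.

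Both ligands were weakly expressed. upd1 encodes the ligand needed in the embryo, and its longer transcript (X:18199379-18203021 in the dm3 assembly, minus strand, 2160 bases) had 352 reads in FH-cortoCD, 439 in RpL12-Myc, 333 in the sd::Gal4/+ control and 249 in w1118. These were 3.85, 4.62, 4.34 and 4.12 RPKM, with overlapping intervals in all 4 libraries. upd3, a ligand known from blood cells and the stressed gut, spans X:18171266-18178632 on the plus strand (2224 bases) and had 20, 33, 33 and 23 reads in the same order, or 0.213, 0.338, 0.418 and 0.369 RPKM. Only between 22.4% and 31.9% of its bases were covered by a read in any library, so that its level was close to the limit of detection at this depth.

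The receptor and the kinase were read in depth. dome (X:19570090-19577549, minus strand, 4877 bases) had 11621 reads in FH-cortoCD, 13006 in RpL12-Myc, 8392 in the sd::Gal4/+ control and 6543 in w1118. Its level was 56.4 and 60.7 RPKM in the assays and 48.4 and 47.9 RPKM in the controls, and the assay intervals did not overlap those of the controls. hop (X:11254932-11262130, minus strand, 5085 bases) had 4978, 5827, 4012 and 3176 reads, or 23.2, 26.1, 22.2 and 22.3 RPKM. For hop only the library labelled RpL12-Myc stood above the others, its lower limit of 25.1 RPKM lying above the upper limits of 24.1, 23.2 and 23.4 in FH-cortoCD, sd::Gal4/+ and w1118. The last 31 bases of hop overlap Pa1 on the other strand, and the library kit did not keep strand, so reads there cannot be told apart.

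Stat92E, the only STAT factor of the fly, was the most abundant member in the controls by the entries used. Its longest entry, the exons shared by all 5 of its transcripts (3R:16361405-16367275, minus strand, 3103 bases), had 8940 reads in FH-cortoCD, 9106 in RpL12-Myc, 8270 in the sd::Gal4/+ control and 6243 in w1118. The level was 68.2 and 66.8 RPKM in the assays and 75.0 and 71.9 RPKM in the controls. The interval of sd::Gal4/+, from 72.8 to 77.3 RPKM, lay above both assay intervals, whereas that of w1118, from 69.4 to 74.4 RPKM, overlapped the interval of FH-cortoCD, which reached 70.2 RPKM.

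Both measured inhibitors were expressed at levels like those of the core components. The exons shared by both Socs36E transcripts (2L:18140443-18152410, minus strand, 2016 bases) had 1963, 2114, 1471 and 1238 reads, or 23.0, 23.9, 20.5 and 21.9 RPKM. The exons shared by all 4 Ptp61F transcripts (3L:1344626-1346450, minus strand, 1340 bases) had 3596, 4169, 2673 and 2244 reads, or 63.5, 70.8, 56.2 and 59.8 RPKM. For each gene the assays were both above both controls, but not always beyond counting error. The Socs36E interval of FH-cortoCD, from 21.6 to 24.5 RPKM, overlapped those of both controls. That of RpL12-Myc, from 22.4 to 25.3 RPKM, overlapped that of w1118, from 20.2 to 23.7 RPKM. The Ptp61F interval of FH-cortoCD, from 60.6 to 66.5 RPKM, overlapped that of w1118, from 56.4 to 63.4 RPKM.

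The longest transcript of chinmo (2L:1695649-1702832, plus strand, 7184 bases in this entry) had 596, 531, 523 and 359 reads, or 1.96, 1.68, 2.05 and 1.79 RPKM. Its 4 intervals overlapped, and between 61.5% and 76.7% of its bases were covered. Within each library the order of levels placed upd3 last, chinmo above it and upd1 above chinmo, with intervals that did not overlap. The intervals of hop and Socs36E overlapped in every library, and those of Stat92E and Ptp61F overlapped in the assays but not in the controls, where Stat92E was higher. That order depended on the entry, as another Ptp61F entry, of 922 bases, had 86.4 RPKM (from 81.9 to 91.0) in sd::Gal4/+ and 85.8 RPKM (from 80.9 to 91.0) in w1118, above Stat92E.

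**Figure D1:**
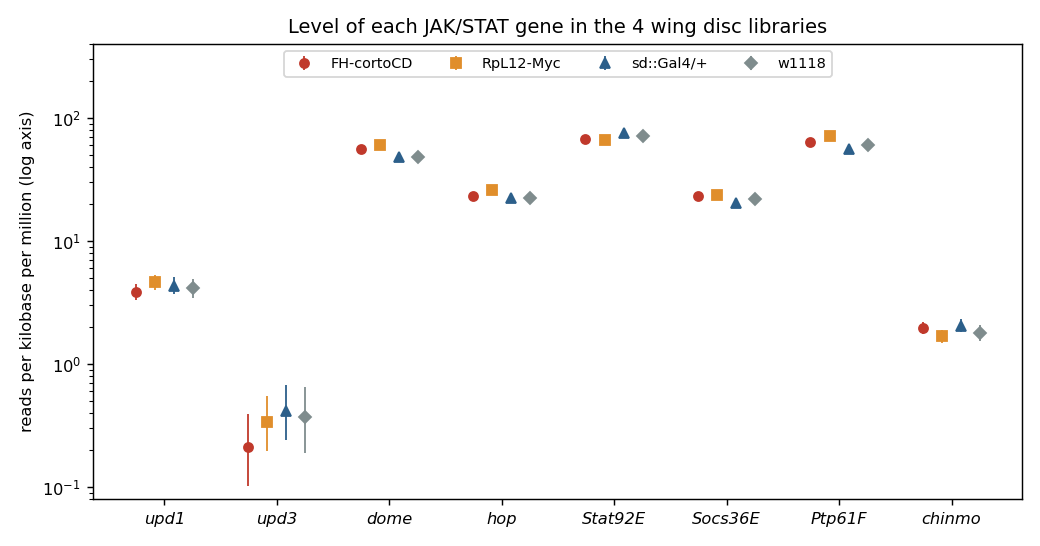
Level of the 8 measured JAK/STAT genes, in RPKM on a log axis, 1 point per library with its exact Poisson 95% interval. upd3 lies between 0.213 and 0.418, upd1 and chinmo between 1.68 and 4.62, and the other 5 genes between 20.5 and 75.0 in all 4 libraries.

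No JAK/STAT gene was called in any comparison. The rule for a call used the cutoffs of the study, an adjusted P-value below 4e-18 in edgeR's binomial test and an absolute log2 fold change above 1. The test was on summed reads, with Benjamini-Hochberg adjustment over all entries. The fold limit was put on scaled folds here, whereas the study's gene lists give folds of unscaled reads. 0 of the 8 genes met this rule in FH-cortoCD against sd::Gal4/+, where 2.51% of all genes did, and 0 of 8 in RpL12-Myc against sd::Gal4/+, where 2.35% did. In w1118 against sd::Gal4/+ the count was 0 of 8 with 0.377% over all genes, and in FH-cortoCD against RpL12-Myc 0 of 8 with 0.334%. The counts of the members were near these shares.

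With no limit on the fold and an adjusted P-value below 0.05, 5 of the 8 genes differed in FH-cortoCD against sd::Gal4/+, 3 higher and 2 lower, beside 41.8% of all genes, 20.5% higher and 20.2% lower. In RpL12-Myc against sd::Gal4/+ the count was 6, 4 higher and 2 lower, beside 42.3%, 21.5% higher and 19.3% lower. The shares by direction leave out genes with 0 reads in 1 of the libraries. None passed in w1118 against sd::Gal4/+, where 14% of genes did and 3 of the 8 had an unadjusted P-value below 0.05. In FH-cortoCD against RpL12-Myc 3 passed, all lower in FH-cortoCD, beside 24% in either direction and 13% lower. This test takes every read as independent. The exact test of edgeR was also run with the dispersion measured between the control libraries, 0.0132. By that test none of the 8 genes had an adjusted P-value below 0.05 in any comparison, and the lowest was 0.226. The shares of all genes by the exact test and by unadjusted P-values were not computed. Those 2 counts therefore cannot be read as particular to the members.

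The differences were small in size. dome, the receptor, had a log2 fold change of 0.22 in FH-cortoCD (95% interval from 0.16 to 0.28, Clopper-Pearson on read pairs, counting error only) and of 0.32 in RpL12-Myc (from 0.27 to 0.38), against -0.02 in w1118 (from -0.08 to 0.05). These were the lowest adjusted P-values among the most abundant entries of the members in edgeR's binomial test, 3.97e-25 and 3.91e-57.

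hop was 0.06 above sd::Gal4/+ on the log2 scale in FH-cortoCD (from -0.03 to 0.15), 0.23 above it in RpL12-Myc (from 0.15 to 0.31) and 0.01 above it in w1118 (from -0.09 to 0.10). The difference between the assays was itself outside counting error, at -0.17 in FH-cortoCD against RpL12-Myc (from -0.25 to -0.09, adjusted P-value 2.19e-08 by edgeR's binomial test). Ptp61F had 0.18 (from 0.07 to 0.28) in FH-cortoCD, 0.33 (from 0.23 to 0.43) in RpL12-Myc and 0.09 (from -0.02 to 0.21) in w1118, and it too was lower in FH-cortoCD than in RpL12-Myc, by a log2 fold change of -0.16 (from -0.25 to -0.07). The direction of Ptp61F against sd::Gal4/+ depended on the entry. Summed over entries with distinct ends, so that no stretch entered more than once, its reads gave -0.13 (from -0.20 to -0.05) in FH-cortoCD and -0.04 (from -0.11 to 0.03) in RpL12-Myc. That sum left out an entry of 270 bases that shares an end with a longer one, and with it a last exon of 141 bases. The entry left out gave 0.25 and 0.42 in the assays.

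Socs36E, often used as a readout of pathway activity, had 0.17 (from 0.03 to 0.31) in FH-cortoCD and 0.22 (from 0.08 to 0.35) in RpL12-Myc by its shared exons, and 0.10 (from -0.06 to 0.25) in w1118. That too depended on the entry, since the same sum over entries with distinct ends gave 0.02 (from -0.09 to 0.12) and -0.07 (from -0.18 to 0.04) in the assays. Stat92E was on the other side of 0 in both assays, at -0.14 (from -0.20 to -0.08) and -0.17 (from -0.23 to -0.11). Against w1118 in place of sd::Gal4/+ these were -0.08 and -0.11, and without scaling for library size, a choice that shifts all genes together, 0.11 and 0.14.

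The weakly expressed members had wide intervals. upd1 gave -0.17 (from -0.48 to 0.14) in FH-cortoCD and 0.09 (from -0.21 to 0.39) in RpL12-Myc. upd3 gave -0.97 (from -2.27 to 0.25) and -0.31 (from -1.38 to 0.77), and although its adjusted P-value in FH-cortoCD was 0.0475 in edgeR's binomial test on reads, the intervals on read pairs took in both 0 and changes beyond -1. A difference in upd3 could not be shown at this depth. chinmo gave -0.06 (from -0.31 to 0.18) and -0.29 (from -0.54 to -0.03), and -0.20 (from -0.48 to 0.08) in w1118.

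These changes were set beside the spread between the control libraries. Over the 6885 genes that reached 100 reads in each library, the absolute log2 fold change of w1118 against sd::Gal4/+ had a median of 0.0862 and a 95th percentile of 0.336. The 7 members with that depth, all but upd3, lay inside that percentile in both assays, as did 61.9% of genes in FH-cortoCD and 62.3% in RpL12-Myc. Ptp61F in RpL12-Myc, at 0.334, and dome, at 0.325, lay just inside it. The median absolute log2 fold change of these 7 was 0.165 in FH-cortoCD and 0.231 in RpL12-Myc, beside 0.254 and 0.252 over the 6885 genes. The signed median over all 8 members, upd3 included, was -0.0011 in FH-cortoCD and 0.15 in RpL12-Myc. Over all genes with reads in both libraries it was -0.00016 and 0.015, and over the 6885 genes 0.0073 and 0.034.

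**Figure D2:**
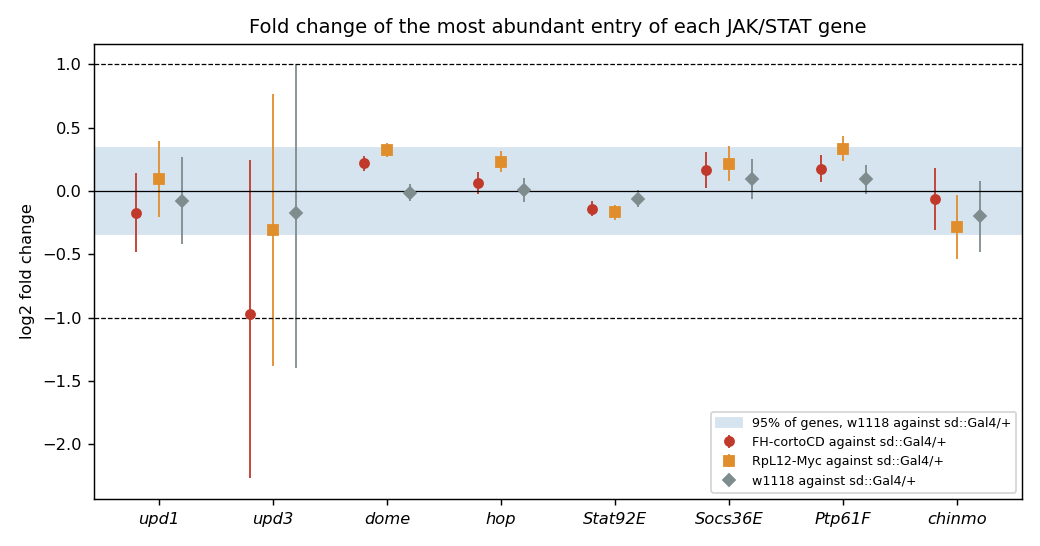
Log2 fold change of the most abundant entry of each JAK/STAT gene against sd::Gal4/+, with exact binomial 95% intervals, and the band that holds 95% of genes in w1118 against sd::Gal4/+. Every point but that of upd3 in FH-cortoCD, at -0.97, lies inside the band of 0.336, and none passes the dashed lines at a log2 fold change of 1.

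A different picture came from the separate entries of the genes that have more than one. Of the 30 entries of members none was called, beside 3.18% of all entries called in FH-cortoCD and 3.38% in RpL12-Myc against sd::Gal4/+ and 0.233% in w1118. With an adjusted P-value below 0.05 and no limit on the fold, 13 and 12 of the 30 differed in the assays, beside 39% and 39.8% of all entries, and 0 in w1118, beside 10.9%. These entries are not independent, since several overlap and share reads. Entries of one gene could lie on opposite sides of 0.

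In Socs36E the shared exons were above sd::Gal4/+ and the last exon below it. The last exon is held by an entry of 1487 bases at 2L:18138668-18140154, and in the reference annotation that exon of the same transcript, FBtr0081040, has 307 coding bases and 1170 bases of 3′ UTR. It had 1221 reads in FH-cortoCD, 1009 in RpL12-Myc, 1176 in the sd::Gal4/+ control and 900 in w1118. The log2 fold change was -0.20 (from -0.36 to -0.03) in FH-cortoCD, -0.53 (from -0.70 to -0.35) in RpL12-Myc and -0.04 (from -0.22 to 0.14) in w1118. For the body of the gene and its last exon in RpL12-Myc, 0.22 and -0.53, the intervals did not overlap, and the same held in FH-cortoCD for 0.17 and -0.20.

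Ptp61F makes transcripts with different 3′ ends. The nearer end (3L:1343608-1344529, an entry of 922 bases in FBtr0072718 and FBtr0072719) had 2402 reads in FH-cortoCD, 2483 in RpL12-Myc, 2829 in the sd::Gal4/+ control and 2215 in w1118. Its log2 fold change was -0.49 (from -0.60 to -0.38) in FH-cortoCD and -0.50 (from -0.61 to -0.38) in RpL12-Myc, and -0.01 (from -0.12 to 0.11) in w1118. The adjusted P-values of the assays were 5.13e-33 and 1.15e-34 by edgeR's binomial test, past the cutoff of 4e-18, but the fold was under the limit.

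The transcripts with the farther end, FBtr0072716 and FBtr0072717, have an entry of 270 bases between 3L:1342490 and 3L:1344529. In the reference annotation 126 bases of their next-to-last exon lie inside the last exon of FBtr0072718, so the entry shares reads with the nearer end and is no separate measure of the farther one, whose exon has 141 bases there. It had 468, 546, 330 and 288 reads and changes of 0.25 on the log2 scale (from -0.04 to 0.55) in FH-cortoCD, 0.42 (from 0.14 to 0.71) in RpL12-Myc and 0.15 (from -0.19 to 0.48) in w1118. These lay on the other side of 0 from the 922-base entry that it overlaps. A 5′ entry of 294 bases had between 175 and 250 reads and differed by less than its counting error in both assays, at -0.10 and -0.17. The farthest 5′ exon, 189 bases, had 0 reads in all 4 libraries, which allows up to 3 reads in each. Other genes on the opposite strand lie within the introns of Ptp61F, among them CG9166 with between 178 and 319 reads.

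chinmo showed the largest contrast between entries. Its last exons nest in one another, and the reads were separated by subtracting the inner entry from the outer. The first stretch, 2L:1695649-1697837 (2189 bases, which in FBtr0077878 are 498 coding bases and 1688 bases of 3′ UTR in the reference annotation), had 283 reads in FH-cortoCD, 263 in RpL12-Myc, 129 in the sd::Gal4/+ control and 103 in w1118. It was higher in the assays by a log2 fold change of 0.88 (from 0.45 to 1.33) and 0.72 (from 0.28 to 1.17), and differed by 0.02 (from -0.54 to 0.57) in w1118. The upstream exons shared by all 6 transcripts (1835 bases, 2L:1690117-1695586) had 184, 167, 88 and 61 reads and gave 0.81 (from 0.28 to 1.37) and 0.62 (from 0.07 to 1.18).

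The far part of the longest chinmo transcript went the other way. The last 4215 bases, 2L:1698618-1702832, had 272 reads in FH-cortoCD, 241 in RpL12-Myc, 331 in the sd::Gal4/+ control and 211 in w1118. It gave -0.53 (from -0.87 to -0.20) and -0.76 (from -1.12 to -0.42) in the assays and -0.31 (from -0.67 to 0.06) in w1118. The 780 bases between had 41, 27, 63 and 45 reads and -0.87 (from -1.75 to -0.02) and -1.53 (from -2.57 to -0.57). The most abundant entry of chinmo spans all these stretches, and its fold changes of -0.06 and -0.29 combine parts above and below 0. With every stretch of the gene counted once, chinmo gave 0.11 (from -0.10 to 0.32) and -0.14 (from -0.35 to 0.08). The 5′ exons of its other transcripts had few reads, at most 55 in any entry and library.

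Stat92E has alternative 5′ exons. The exon farthest upstream (3R:16377803-16378034, 232 bases) had 214 reads in FH-cortoCD, 213 in RpL12-Myc, 136 in the sd::Gal4/+ control and 135 in w1118, and the next one (3R:16376443-16376852, 410 bases) had 449, 379, 346 and 292. Of the reads in both, the upstream exon held 32.3% (from 27.3% to 37.6%) in FH-cortoCD, 36.0% (from 30.5% to 41.7%) in RpL12-Myc, 28.2% (from 22.6% to 34.4%) in the sd::Gal4/+ control and 31.6% (from 25.4% to 38.3%) in w1118. A difference in the use of the 5′ exons was not detectable at this depth, since all these intervals overlapped.

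**Figure D3:**
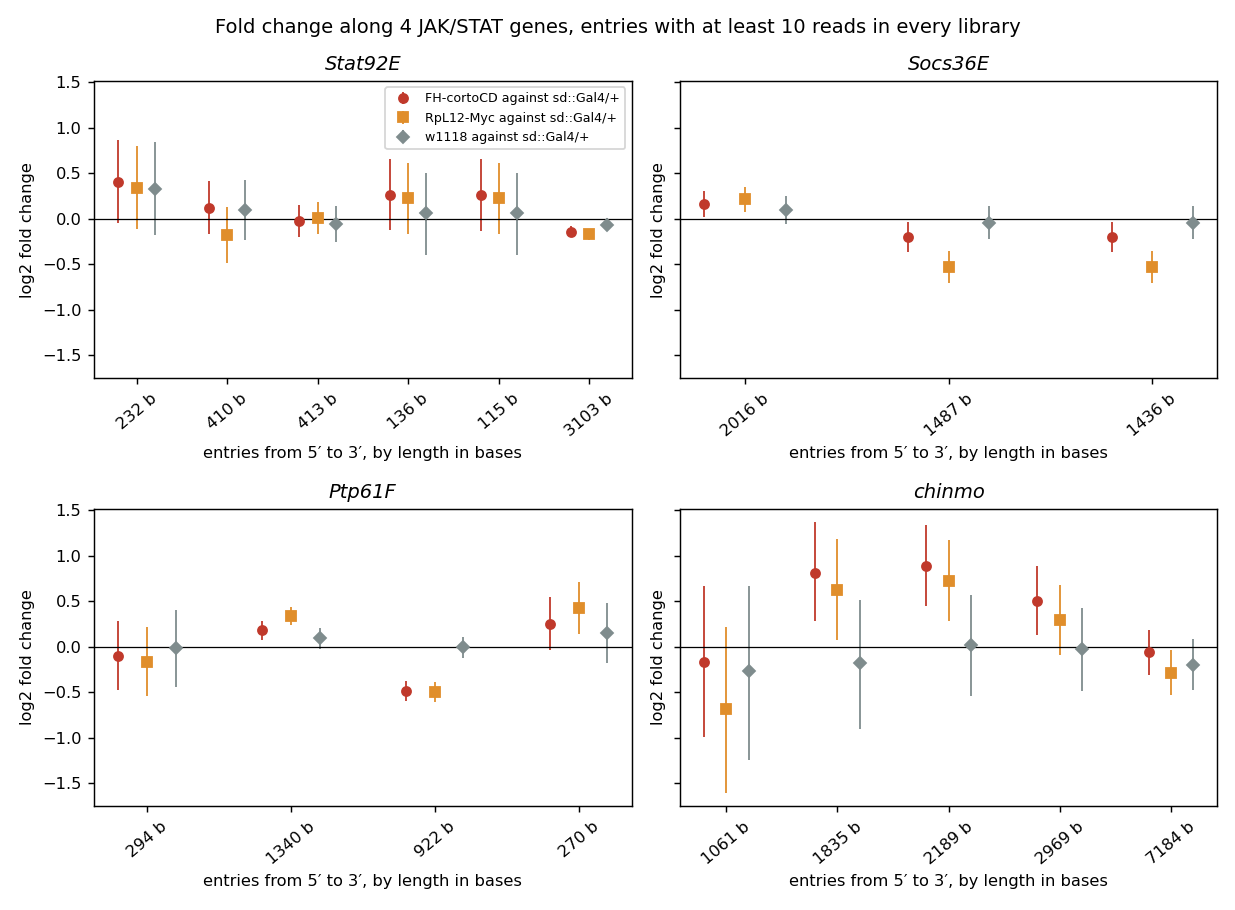
Log2 fold change against sd::Gal4/+ of each entry of Stat92E, Socs36E, Ptp61F and chinmo that had at least 10 reads in every library, ordered from 5′ to 3′ and named by length in bases (b), with exact binomial 95% intervals. In Socs36E the 1487-base last exon lies at -0.20 and -0.53 in the assays, in Ptp61F the 922-base 3′ end at -0.49 and -0.50, and in chinmo the 2189-base entry at 0.88 and 0.72. The 1487 and 1436-base entries of Socs36E, the 136 and 115-base entries of Stat92E, the 922 and 270-base entries of Ptp61F and the last 3 entries of chinmo overlap.

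A shift between the ends of genes was present across the series in both assays. For every gene whose 5′-most and 3′-most entries did not overlap and had at least 50 reads in each library, the log2 fold change of the 5′-most entry was subtracted from that of the 3′-most. This measure was chosen after the entries of the members had been seen. Over 1959 genes the median was -0.39 in FH-cortoCD and -0.35 in RpL12-Myc against sd::Gal4/+, and -0.04 in w1118. It was below 0 in 76.7% and 71.6% of genes in the assays and in 55.2% in w1118.

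4 members had such a pair of entries. Socs36E gave -0.36 in FH-cortoCD, -0.74 in RpL12-Myc and -0.14 in w1118, and chinmo -0.88, -0.90 and -0.01. The 3′-most entry of chinmo is the one of 7184 bases, which combines parts above and below 0. Stat92E gave -0.54, -0.51 and -0.40. Its 5′-most entry is the exon of 232 bases, whose own log2 fold changes had wide intervals. They were 0.40 (from -0.05 to 0.86), 0.34 (from -0.11 to 0.80) and 0.33 (from -0.17 to 0.84) in the same order. Counting error was not worked out for the differences between ends. Ptp61F gave 0.35, 0.59 and 0.17, its 3′-most entry being the 270-base one, which lies partly inside the nearer end. The values of Socs36E and Stat92E in both assays lay inside the quartiles of the 1959 genes, from -0.77 to -0.03 and from -0.78 to 0.07, while chinmo lay below and Ptp61F above the quartiles in both assays. The part that this shift has in the entries of Socs36E, Ptp61F and chinmo was not tested.

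**Figure D4:**
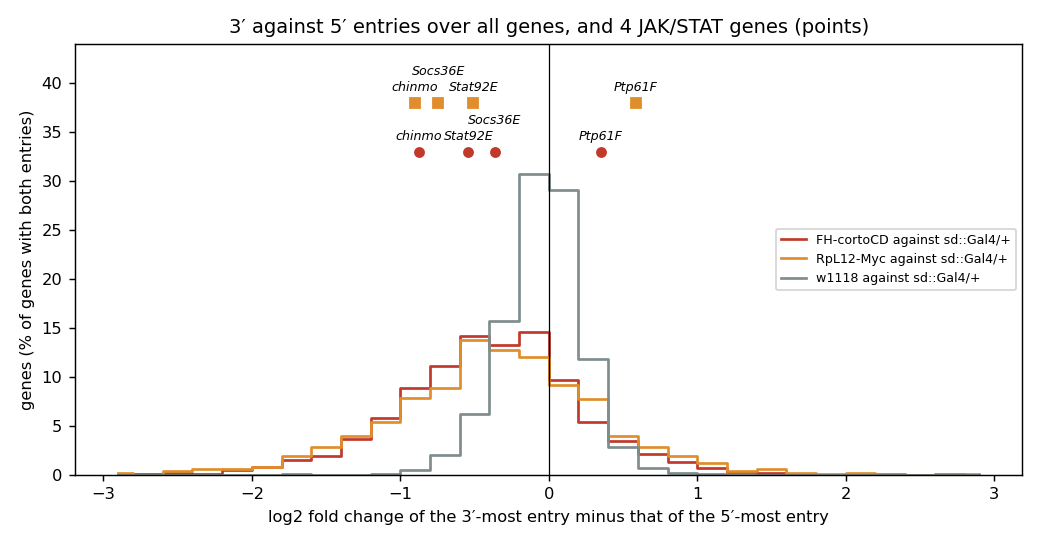
Distribution over 1959 genes of the log2 fold change of the 3′-most entry minus that of the 5′-most, against sd::Gal4/+, as a percentage of genes per bin (values beyond the axis are in the outer bins), with the 4 JAK/STAT genes as points above (circles for FH-cortoCD, squares for RpL12-Myc). The assay curves reach farther to the left of 0, with medians of -0.39 and -0.35, and the w1118 curve is narrower and lies near 0, with a median of -0.04. chinmo, Stat92E and Socs36E lie between -0.36 and -0.90 and Ptp61F at 0.35 and 0.59.

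Further genes of the pathway were taken from lists chosen by name. Of 7 regulators none was called in any comparison, beside 2.51% of all genes in FH-cortoCD, 2.35% in RpL12-Myc and 0.377% in w1118 against sd::Gal4/+ and 0.334% between the assays. Their log2 fold changes lay between -0.44 and 0.51 in FH-cortoCD and between -0.59 and 0.51 in RpL12-Myc, with medians of 0.02 and 0.0011. They were Su(var)2-10, the PIAS protein that inhibits Stat92E, the repressor ken, the transcription factor apt, Socs44A, Socs16D, and CycD and Cdk4, cell cycle partners known to interact with the pathway.

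Of 13 target genes 10 had reads enough in sd::Gal4/+ for a fold. 1 of them was called lower in FH-cortoCD, where 1.29% of all genes were, and none in RpL12-Myc, where 1.66% were, and their medians were -0.26 and -0.10. TotA, a stress protein secreted by the fat body, was the gene called. It had 117 reads in FH-cortoCD, 178 in RpL12-Myc, 264 in the sd::Gal4/+ control and 4 in w1118. Its log2 fold changes were -1.42 (from -1.89 to -0.97), -0.88 (from -1.28 to -0.48) and -5.70 (from -8.76 to -3.82), and it was called lower in w1118 as well, as were 0.334% of genes. The 5 fat body markers summed to 584, 876, 1307 and 53.3 CPM in the same order, so that TotA was highest where their sum was highest and lowest where it was lowest. Against sd::Gal4/+, 4 of them were lower in each assay and 1, Lsp1beta, was higher, by a log2 fold change of 0.28 in FH-cortoCD and 0.35 in RpL12-Myc. None of the 5 was at 0 in any library. Their part in the TotA values was not tested.

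slbo, the C/EBP factor that the pathway turns on in migrating border cells of the ovary, had 61 reads in FH-cortoCD, 107 in RpL12-Myc, 13 in the sd::Gal4/+ control and 27 in w1118. Its log2 fold changes were 1.98 (from 0.73 to 3.47), 2.73 (from 1.56 to 4.17) and, in w1118, 1.40 (from -0.05 to 3.01). The adjusted P-values, 2.39e-06 and 1.02e-14 by edgeR's binomial test, missed the cutoff, so slbo was not called. It was lowest in sd::Gal4/+, the library both assays were compared with. The 4 salivary gland markers, Sgs3, Sgs5, Sgs7 and Sgs8, were lowest there as well, and none of them was at 0 in any library. They summed to 4.83, 6.12, 0.985 and 7.07 CPM, with libraries listed as for the reads of slbo. That sum was highest in w1118, where slbo was below both assays. The sum of the midgut markers, at 15.6, 103, 0.113 and 0.143 CPM, ranked the libraries as slbo did after scaling. Between the controls that ranking rests on few reads, at most 3 for any midgut marker. The part of either set of markers in the slbo values was not tested. The other Turandot genes TotC, TotM and TotX had at most 4 reads in any library, and the remaining targets, among them Tep2, zfh2, dpn and mirr, lay between -0.53 and 0.36 in the assays.

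**Figure D5:**
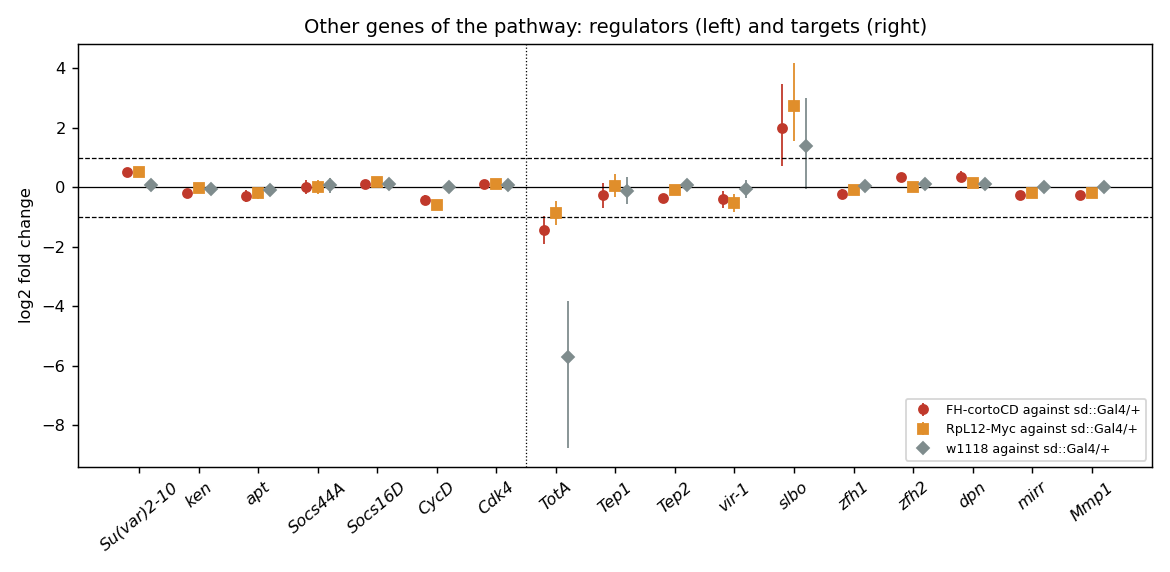
Log2 fold change against sd::Gal4/+ of 7 regulators (left of the dotted line) and 10 targets (right) of the pathway, with exact binomial 95% intervals and dashed lines at a log2 fold change of 1. TotA lies at -1.42, -0.88 and -5.70 and slbo at 1.98, 2.73 and 1.40 in FH-cortoCD, RpL12-Myc and w1118, and the other genes lie between -0.59 and 0.51.

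The genes with profiles most like those of Stat92E and Socs36E were sought over the 4 libraries, by the Euclidean distance between log2 CPM, each centred on its mean, among 6885 genes. Nearest to Stat92E were CG10428 at a distance of 0.0139, tutl, a cell surface protein of the immunoglobulin family, at 0.0145 and Rlip at 0.0155. Nearest to Socs36E were Ankrd49 at 0.0147, Elp3, the catalytic subunit of Elongator, at 0.0148 and CG11168 at 0.0177. As many as 308 genes lay within 0.1 of Stat92E and 362 within 0.1 of Socs36E, so profiles this close over 4 libraries were shared by many genes.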

How the data were processed

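Messenger (polyA+) RNA was sequenced as 50 bp read pairs with a kit that does not keep strand. The authors aligned reads to dm3 with Bowtie, removed reads matching more than once, and deposited, for each read of a pair, raw counts of overlaps with the exons of FlyBase entries. They also deposited, per the file headers, the number of bases of each entry without a read, used here for coverage only.

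Counts of both reads were summed. Transcripts were named with the BDGP6 annotation, which gave 28961 of 30950 entries 1 gene name, 1059 of them through a transcript sharing an entry. That annotation served for names and exon lengths only. All coordinates are those of the files. edgeR 4.0.16 in R 4.3.3 gave TMM factors from all 4 libraries (0.967 to 1.04) and the binomial test, the successor of the function the authors used, over all entries. On simulated counts the test was checked. The most abundant entry by mean CPM stood for a gene. Both reads come from 1 fragment, so P-values overstate the evidence, and intervals used read pairs.

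The named genes were the 10 members, regulators and targets called or beyond a log2 change of 1 at 10 or more reads, and the 3 nearest genes. Members and lists were chosen with earlier results of these data known. The alternatives were DESeq2 1.42.0 size factors, total counts, unscaled fold changes, each read alone, summed entries, a minimum of 10 reads, a cutoff of 0.05, a log2 limit of 2, the exact test and w1118 as control. A planned search of promoters for STAT motifs was not run, as no genome sequence was used here.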

Additional observations from a re-analysis of the deposited data

How the results depend on the processing

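The number of JAK/STAT genes called was 0 in all 4 comparisons under every alternative, 11 for each assay against sd::Gal4/+ and 10 for each of the other comparisons. The median of the members ranged from -0.07 to 0.06 in FH-cortoCD and from 0.04 to 0.16 in RpL12-Myc under the scaled alternatives. Fold changes from unscaled counts, which shift all genes by 0.25, 0.31 and -0.34, gave medians of 0.25 in FH-cortoCD, 0.46 in RpL12-Myc and -0.38 in w1118 against sd::Gal4/+. Of 240 fold changes of single members under 8 alternatives, 210 stayed within their counting interval. Of the 30 others 20 came from unscaled counts, and 7 from summing all entries, which counts stretches in overlapping entries more than once and gave -0.05 and -0.20 for Socs36E, -0.10 and -0.01 for Ptp61F and 0.33 and 0.09 for chinmo in the assays. The sum over entries with distinct ends was added after seeing the data. 2 came from w1118 as control, both for Stat92E, and 1 from total counts, for dome in FH-cortoCD at 0.16, where its adjusted P-value (edgeR's binomial test) was 1.31e-13. With at least 100 reads in place of 50, chosen after seeing the data, the difference between ends had medians of -0.39, -0.37 and -0.03 over 1682 genes. Depth limited upd3, chinmo and upd1. No paired analysis was possible because each genotype had 1 library. No library could be left out for the same reason.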
